A study of Mus musculus with 6 samples.

Results

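The proteasome genes were taken as the genes whose symbol begins with Psma, Psmb, Psmc, Psmd, Psme, Psmf or Psmg and a digit. A probe set, the group of array probes that reports 1 transcript, counted only if its annotation carried exactly 1 gene symbol. By that rule 85 probe sets came down to 48 genes, of 12393 genes represented on the array, with 1 probe set per gene, the one of highest mean signal over all 6 arrays. All 48 symbols matched RefSeq. Of the 48, 46 encode subunits, activators, an inhibitor or assembly factors of the proteasome. The other two came in by their spelling. Psmc3ip encodes a partner protein in meiotic recombination, and Psme3ip1 encodes a protein that binds the activator made by Psme3. Psme2, the partner of the activator subunit Psme1, was not among the 48, because its only probe set also carries the symbol Psme2b.

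The tissue was the paraventricular nucleus of the hypothalamus (PVN) of C57Bl/6 mice. Electroconvulsive seizure (ECS) was given through ear clips under isoflurane, as a single bilateral shock of 25 mA lasting 1 s. The shock came in pulses of 0.5 ms at 100 pulses per s. Sham mice were handled in the same way with no current. The design has 3 groups with 2 arrays each, namely sham mice killed at 2 h, ECS mice killed at 2 h and ECS mice killed at 6 h. RNA on an array came from 2 to 3 animals pooled, and replicates 1 and 2 are separate runs with different animals. No sham group was taken at 6 h, so time since handling and time since the shock cannot be told apart there. The nucleus was cut by laser from 7 µm sections, and 2 ng of RNA per pool was amplified. In such bulk samples fewer cells of a type and less RNA per cell cannot be told apart.

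The proteasome is the protease that breaks down proteins marked with ubiquitin chains. Its core particle is a barrel of stacked rings, with alpha subunits outside and beta subunits inside. Psmb5, Psmb6 and Psmb7 carry the chymotrypsin-like, caspase-like and trypsin-like active sites. Under interferon gamma they are replaced by Psmb8, Psmb9 and Psmb10, which form the immunoproteasome. A regulatory particle of ATPases (Psmc) and other subunits (Psmd) binds the ubiquitin chain, unfolds the protein and threads it into the barrel. In neurons the proteasome is known for its part in synaptic plasticity. When it is inhibited, the transcription factor Nfe2l1 raises the subunit genes together through antioxidant response elements in their promoters.

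The core of that element was searched for because such a response would involve many members at once. The letters TGACNNNGC were looked for on both strands of RefSeq promoter windows, from 250 bases before the start site to 50 after it. A window was found for 40 of the 48 members, and 6 of these 40 held a match (15.0%). Among all 27025 genes with a window, 3781 held one (14.0%), so the share in the members was close to the background. The matches are shown in capitals with up to 25 bases on either side, on the gene's own strand, 5′ to 3′. Bases past the start site are shown only where the match itself covers them, which are the last 2 in Psme4.
Psmb5: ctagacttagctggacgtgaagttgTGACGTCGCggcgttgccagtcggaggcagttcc
Psmb6: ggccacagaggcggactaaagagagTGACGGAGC
Psmd9: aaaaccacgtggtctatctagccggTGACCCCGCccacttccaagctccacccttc
Psme4: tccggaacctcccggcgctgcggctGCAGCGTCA
Psmc6: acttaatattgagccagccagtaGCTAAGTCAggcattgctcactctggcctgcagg
Psmd12: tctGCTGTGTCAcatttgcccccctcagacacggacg
In Psmb5, Psmb6 and Psmd9 the match lies on the gene's strand, and in Psme4, Psmc6 and Psmd12 on the opposite strand. The printed stretches are, in build GRCm38.p6, chr14:54618009-54618067 on the minus strand for Psmb5 and chr11:70525323-70525356 on the plus strand for Psmb6. They are chr5:123228134-123228189 on the plus strand for Psmd9 and chr11:30771743-30771776 on the plus strand for Psme4. For Psmc6 the stretch is chr14:45329574-45329630 and for Psmd12 chr11:107479278-107479314, both on the plus strand. The match begins 9 bases before the start site in Psmb6, 47 before it in Psmb5 and 247 before it in Psmd12. A match in letters is a description of the window and not a binding site.

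Levels are log2 signals, that is log2 of the quantile-normalised intensity plus 16, on which an intensity of 0 reads as 4. A change is a difference of 2 group means on that scale, given with its standard error (SE) from limma, which fits a linear model per probe set, here to the 6 arrays together. The offset shrinks the changes of dim probe sets. A probe set was tested if 2 or more of the 6 arrays had it no lower than the median of that array. That left 12662 probe sets, and 46 of the 48 members passed. The exceptions were Psma8, a subunit of the testis, and Psmb8, which were below the median on every array. For 40 members all 6 arrays lay at or above the median. Psmb9 passed only through both 6 h arrays, so it had to be brighter there to be tested. Psmg4 passed through sham replicate 2 and 6 h replicate 1.

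Deposited array medians ran from 25.2 to 40.8, and the Gapdh 3′ to 5′ signal ratio, which grows as RNA is degraded or copied short, was 14.1 in 6 h replicate 1 and 6.43 to 10.5 elsewhere. Of 6 markers of PVN neurons, 5 passed the filter (Oxt, Avp, Trh, Sim1 and Pou3f2) and Otp did not. Of 4 lymphocyte markers 0 passed. The summed signal of 9 neuron markers was 15409 and 14329 in sham, with 11148 and 11146 at 2 h and with 12005 and 13569 at 6 h. All 9 were tested. For 4 markers of cortex and hippocampus, 2 of them tested, it was 602 and 686 in sham, 45 and 101 at 2 h, and 166 and 518 at 6 h. For 7 endothelial and mural markers, 5 of them tested, it was 207 and 217 in sham, 458 and 298 at 2 h, and 326 and 419 at 6 h. Every sham array was thus above every ECS array in neuron and cortex markers and below every one in endothelial markers. The sum of 6 oligodendrocyte markers, 4 of them tested, was 3419 and 3101 in sham and 2256 to 2792 in the ECS arrays. That of the 6 PVN neuron markers was 3817 and 3846 in sham and 4593 to 5218 in the ECS arrays. The sums of both lists separated sham from ECS as well, the oligodendrocyte sum with sham higher and the PVN sum with sham lower. Gene by gene, 4 of the 6 PVN markers had a mean above sham and 2 below it at either time. Of the 6 oligodendrocyte markers 2 were above sham at 2 h and 0 at 6 h. The summed signals move with the ECS against sham comparisons, and their part in the members' values was not tested. Summed microglia markers were 2171 and 2087 in sham and 1862 to 2171 in the ECS arrays.

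At 2 h after ECS no proteasome gene differed from sham past the threshold. The members lay slightly higher than sham, with 33 of 48 above it (68.8%, against 51.0% of all genes) and a median change of 0.12, against 0.0067 for all genes. With the values as deposited 28 of 48 were above sham. The subunits that stood farthest above sham were Psmd12, Psmd7 and the activator Psme4, and the one farthest below was Psmc3ip, which is no proteasome gene. The limma test called 0 of 46 members, and it called 0 of all 12662 probe sets (0%). The smallest adjusted p of a member was 0.9997, and no member had an unadjusted p under 0.05, where 1.72% of all probe sets did on the higher side and 2.28% on the lower.

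For 11 members the ECS pair lay wholly above the sham pair, and for 3 wholly below it. Among all genes, 16.6% were above and 16.3% below in this way. The median change was 0.16 in replicate 1 and 0.044 in replicate 2. Without 2 h replicate 2 it was 0.23, and without 2 h replicate 1 it was 0.041. Members beyond 1.5-fold either way numbered 4 (8.33%), against 12.9% of all genes, and none was beyond 2-fold (0 of 48).

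At 6 h after ECS, again, none of the 46 tested members passed (0 of 46, smallest adjusted p 0.9998), as none of the 12662 probe sets did in limma (0%). Of the 48 members, 34 lay above sham (70.8%, against 51.2% of all genes), with a median change of 0.14 against 0.0085. With the values as deposited, or with median subtraction, 39 of 48 were above sham. The farthest above were the base chaperone Psmd5, the immunoproteasome subunit Psmb9 and the core subunit Psmb3. No member had an unadjusted p under 0.05 (0 of 46), where 1.71% of all probe sets did on the higher and 2.05% on the lower side. Without 6 h replicate 2 there were 4 such members, and with the replicate block or without sham replicate 2 there was 1. Arrays did not overlap for 7 members above sham and 5 below, against 16.1% and 14.8% of all genes. The medians of the runs were 0.077 and 0.093. Both comparisons use the same sham arrays, so the excess at one time is not independent of that at the other. Without 6 h replicate 1 the median was 0.087.

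Between 6 h and 2 h after ECS the members showed no common direction. Of the 48, 23 lay higher at 6 h (47.9%, against 50.4% of all genes), and the median change was -0.029. With the values as deposited 39 of 48 were higher, where the median of all genes moved by 0.11, and 31 lay above that median. With median subtraction 31 were higher. One member, Psmb9, had an unadjusted p under 0.05, where 1.62% of all probe sets reached that on the higher side and 1.84% on the lower. Since Psmb9 was tested only through its bright 6 h arrays, that p is no support for a difference. After adjustment limma called 0 of 46, with a smallest adjusted p of 0.999, and 0 of 12662 probe sets (0%). Arrays did not overlap for 3 members higher and 7 lower at 6 h, against 15.4% and 15.3% of all genes.

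**Figure D1:**
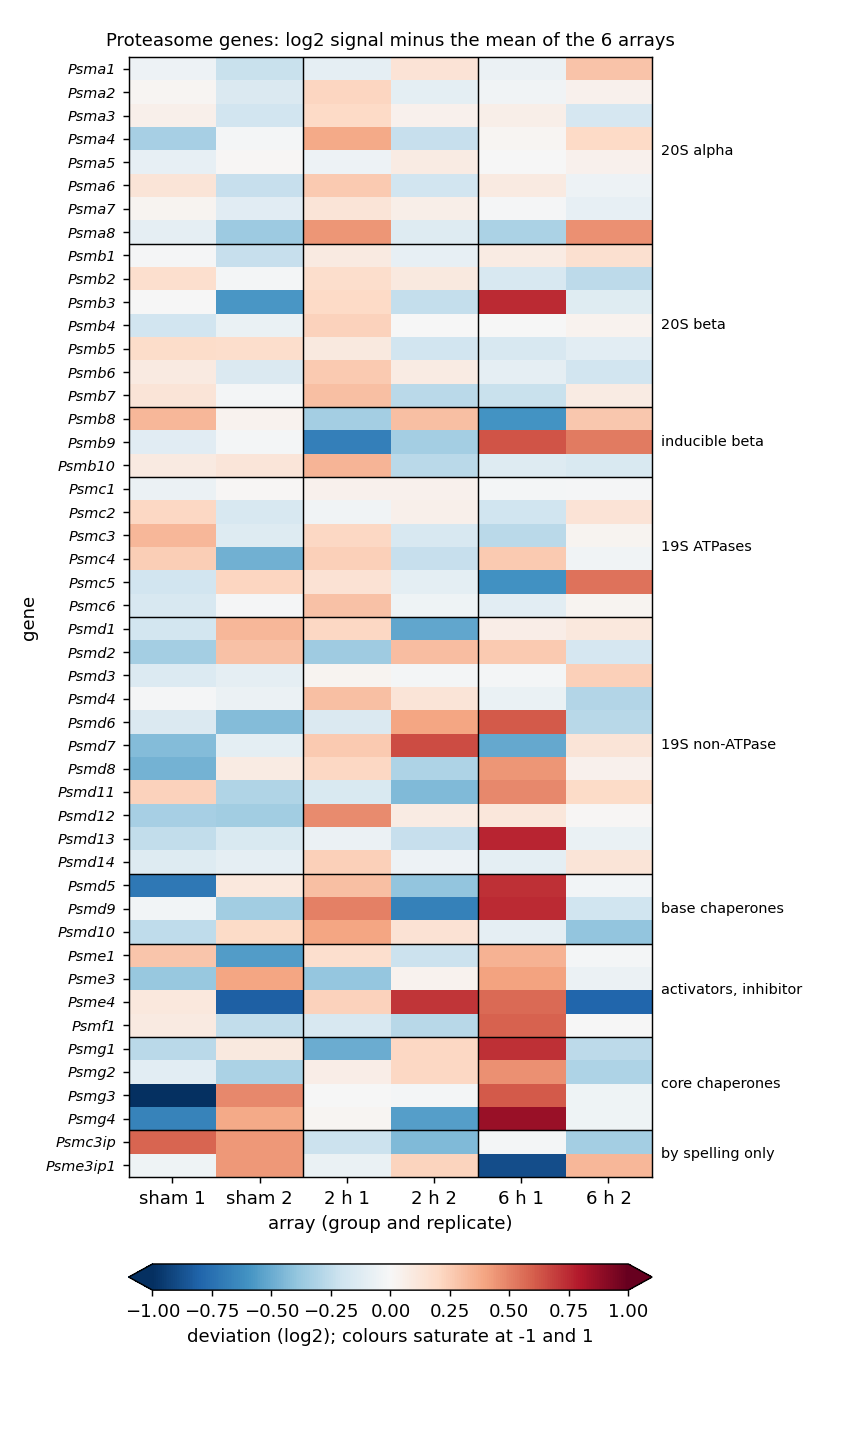
Deviation of each of the 48 members from its own mean over the 6 arrays, in log2 signal, with members in rows ordered by role and arrays in columns. Replicate 1 of the 2 h group holds the highest value of 15 members and replicate 1 of the 6 h group that of 16, while the sham arrays hold the lowest value of 12 and 14.

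The array-by-array view shows where the small excess over sham sits. Replicate 1 of the 2 h group held the highest value of 15 members (31.2%, against 18.1% of tested genes). Replicate 1 of the 6 h group held that of 16 (33.3%, against 22.1%). The sham arrays held the lowest value of 12 members (25.0%) and 14 members (29.2%), against 16.7% and 16.8% of tested genes. The median deviation of the members was -0.053 and -0.078 in sham, 0.17 and -0.046 at 2 h, and 0.01 and -0.018 at 6 h. At 2 h the excess thus lay in replicate 1.

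The outer ring of the core particle is made of the alpha subunits, which gate entry to the barrel. All 8 Psma genes had a mean above sham at 2 h, with changes of 0.051 to 0.38 and a median of 0.14. With the values as deposited 7 of 8 were above sham, and without 2 h replicate 1 only 5 were. At 6 h 7 of 8 were above sham, with a median of 0.068, and Psma7 differed by -0.0095. Without sham replicate 2 the count at 6 h was 4 of 8. Arrays lay wholly above sham for 1 Psma gene of 8 at each time, against 16.6% of all genes at 2 h and 16.1% at 6 h. Psma6, the member with the highest sham signal, read 11.44 and 11.08 in sham, 11.57 and 11.12 at 2 h, and 11.40 and 11.26 at 6 h. On this probe set the Psma6 arrays split by run and not by treatment, replicate 1 being the higher in each group. Its change was 0.089 at 2 h and 0.072 at 6 h (SE 0.188), and both turned sign when 1 array was left out, as low as -0.13 and -0.11. Another tested probe set of Psma6 had replicate 2 as the higher in each group. That probe set read 9.72 and 10.07 in sham, 9.98 and 10.2 at 2 h, and 9.7 and 10.21 at 6 h. Psma8, the lowest member, read 4.29 and 4.02 in sham, 4.82 and 4.25 at 2 h, and 4.06 and 4.84 at 6 h, close to the floor of 4 throughout.

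In the inner ring the constitutive beta subunits went both ways. Of 7, 5 lay above sham at 2 h (median 0.13) and 3 at 6 h (median -0.11), where the median was 0.022 with the values as deposited and 0.047 with median subtraction. Without sham replicate 2 the 2 h count was 3 of 7 and the median -0.016. Psmb4, a structural subunit, read 10.48 and 10.61 in sham, 10.90 and 10.67 at 2 h, and 10.67 and 10.71 at 6 h. All 4 ECS arrays of Psmb4 lay above both sham arrays, by 0.24 at 2 h (SE 0.178, limma's unadjusted p = 0.207) and 0.15 at 6 h (unadjusted p = 0.423). Without 2 h replicate 1 the 2 h change was 0.13, and a second tested probe set gave 0.06 with overlapping arrays. For Psmb4 and the genes below, the share of all genes with all 4 ECS arrays on the same side of sham was not counted. Such a pattern is a description only. Psmb3, also structural, read 9.28 and 8.70 in sham, 9.48 and 9.04 at 2 h, and 10.03 and 9.16 at 6 h. Its 6 h excess of 0.61 (SE 0.347, unadjusted p = 0.109) was 0.76 within replicate 1 and 0.46 within replicate 2, and 0.17 without 6 h replicate 1. A second probe set of Psmb3 gave -0.01 for the same comparison. Psmb2 read 9.31 and 9.12 in sham, 9.32 and 9.24 at 2 h, and 8.98 and 8.88 at 6 h. Both 6 h arrays of Psmb2 lay below all 4 others, with a change of -0.28 against sham and -0.35 against 2 h (SE 0.257, unadjusted p = 0.296 and 0.202).

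The catalytic subunits differed little. Psmb5, the chymotrypsin-like site and a holder of the promoter match, read 7.87 and 7.86 in sham, 7.78 and 7.49 at 2 h, and 7.52 and 7.58 at 6 h. All 4 ECS arrays of Psmb5 were below both sham arrays, with a change of -0.23 at 2 h and -0.32 at 6 h (SE 0.328, unadjusted p = 0.506 and 0.356). The 2 h change was -0.083 without 2 h replicate 2 and -0.37 without 2 h replicate 1. Its 95% interval at 6 h ran from -1.04 to 0.41. Psmb6, the caspase-like site, whose match adjoins the start site, read 9.64 and 9.41 in sham, 9.81 and 9.63 at 2 h, and 9.46 and 9.36 at 6 h. These arrays overlap with sham at both times, with a change of 0.19 at 2 h and -0.11 at 6 h (SE 0.239), the latter being 0.022 with the values as deposited. Psmb7, the trypsin-like site, read 9.56 and 9.41 in sham, 9.73 and 9.16 at 2 h, and 9.21 and 9.51 at 6 h. Neither ECS group of Psmb7 stood apart from sham, with a change of -0.039 at 2 h and -0.12 at 6 h (SE 0.276), the latter being 0.0091 with the values as deposited.

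**Figure D2:**
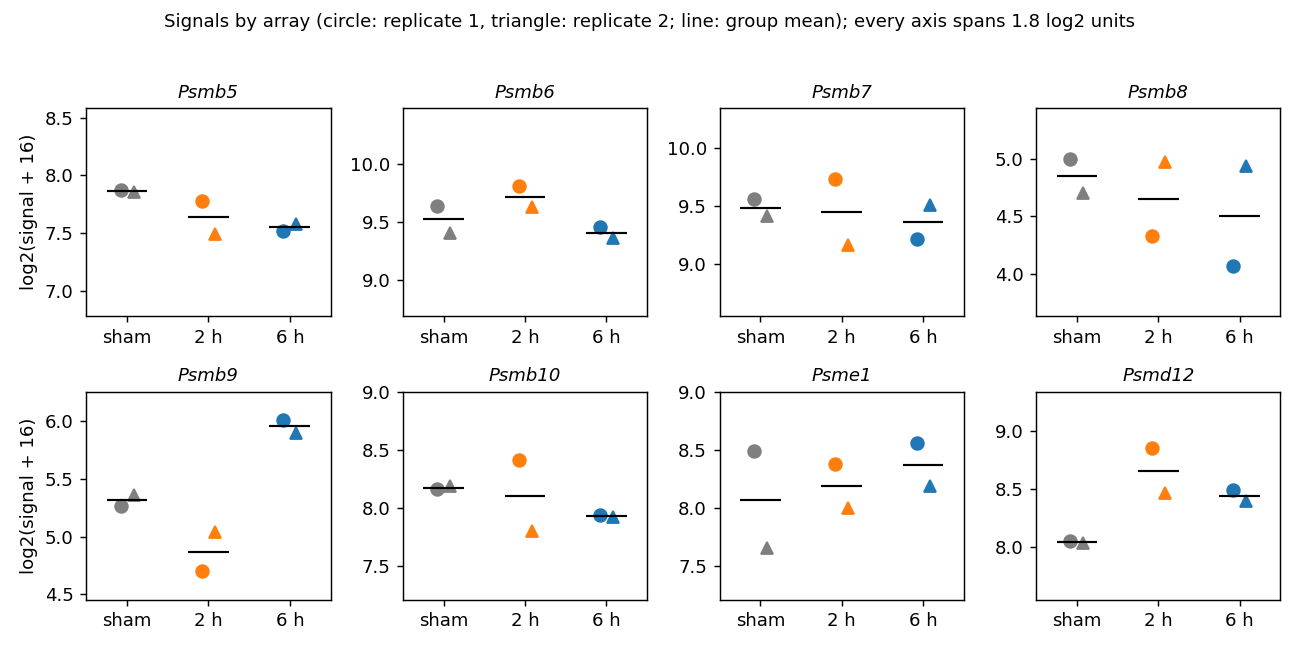
Log2 signal per array of the catalytic subunits Psmb5, Psmb6 and Psmb7, their inducible counterparts Psmb8, Psmb9 and Psmb10, the activator subunit Psme1 and the lid subunit Psmd12, with a circle for replicate 1, a triangle for replicate 2 and a line for the mean of each group (n = 2). Both 6 h arrays of Psmb9 (6.01 and 5.90) lie above its other 4, and both sham arrays of Psmd12 (8.05 and 8.03) lie below its other 4.

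Of the 3 inducible beta subunits, 0 lay above sham at 2 h and 1 did at 6 h. Psmb9, the counterpart of Psmb6, read 5.27 and 5.36 in sham, 4.70 and 5.04 at 2 h, and 6.01 and 5.90 at 6 h. Both 2 h arrays were below both sham arrays and both 6 h arrays above them, so the groups did not overlap in any comparison. With 2 h arrays wholly on one side of sham and 6 h arrays wholly on the other, Psmb9 and Psmd4 made up 2 of 48 members (4.17%), against 1.92% of all genes. The change was -0.45 at 2 h and 0.64 at 6 h against sham (SE 0.447, unadjusted p = 0.339 and 0.183). Between 6 h and 2 h it was 1.08, or 2.12-fold, with a 95% interval of 0.1 to 2.07 (unadjusted p = 0.0344, limma's adjusted p = 0.999), a test that the filter favoured because the 6 h arrays alone let the gene pass. The size rests on the offset, being 1.74 with an offset of 1 and 0.51 with an offset of 64, and the deposited intensities were 8.4 and 17.0 at 2 h and 44.4 and 49.6 at 6 h. Psmb9 was not tested when either 6 h array was left out, since it then no longer passed the filter.

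Psmb8, the counterpart of Psmb5, read 5.00 and 4.70 in sham, 4.33 and 4.97 at 2 h, and 4.07 and 4.94 at 6 h, below the array median throughout and with overlapping groups. Psmb10, the counterpart of Psmb7, read 8.16 and 8.19 in sham, 8.41 and 7.80 at 2 h, and 7.94 and 7.92 at 6 h. At 6 h both Psmb10 arrays lay below both sham arrays, by -0.24 (SE 0.334, unadjusted p = 0.484). At 2 h its arrays lay on either side of sham.

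The ATPases of the base, Psmc1 to Psmc6, unfold the substrate. Of 6, 4 lay above sham at 2 h (median 0.033, and -0.024 with the values as deposited) and 3 at 6 h (median -0.023, and 0.12 with the values as deposited). The largest excess at 2 h was 0.22, in Psmc6, a holder of the promoter match, with 0.47 in replicate 1 and -0.031 in replicate 2. Another tested probe set of Psmc6 gave 0.19, with its excess in replicate 2. That probe set read 8.02 and 7.99 in sham and 7.88 and 8.5 at 2 h. Psmc1 varied least of all members, at 9.91 and 9.98 in sham, 10.01 and 10.01 at 2 h, and 9.95 and 9.96 at 6 h, a range of 0.1. The 95% interval of its 2 h change, from -0.4 to 0.51, stayed within 1.5-fold. Psmc5 read 8.42 and 9.57 at 6 h, so its runs differed by more than its group means did.

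The non-ATPase subunits include the ubiquitin receptors and the lid, which removes the chain. Of 11, 9 lay above sham at 2 h (median 0.15), and 6 of these did so with no overlap, against 16.6% of all genes. At 6 h 10 of 11 lay above sham (median 0.23), 3 with no overlap against 16.1% of all genes, and Psmd4, a ubiquitin receptor, lay below it with no overlap. With the values as deposited 7 of 11 were above sham at 2 h and 10 at 6 h. Without sham replicate 1 the 6 h count was 7 of 11 and the median 0.16, and with the mean over probe sets the 6 h median was 0.13.

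Psmd12, a lid scaffold subunit and a holder of the promoter match, read 8.05 and 8.03 in sham, 8.85 and 8.46 at 2 h, and 8.49 and 8.39 at 6 h. Every ECS array was above both sham arrays, which differed from each other by far less. The change was 0.61 at 2 h (1.53-fold, SE 0.305, 95% interval -0.061 to 1.29, unadjusted p = 0.0704, limma's adjusted p = 0.9997). At 6 h it was 0.40 (unadjusted p = 0.214). Leaving out 1 array kept it between 0.42 and 0.81 at 2 h and between 0.35 and 0.46 at 6 h. Only 1 probe set reports Psmd12.

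Psmd7, the lid subunit that pairs with the deubiquitinase Psmd14, read 6.74 and 7.07 in sham, 7.43 and 7.82 at 2 h, and 6.66 and 7.30 at 6 h. Both 2 h arrays were above the other 4, with a change of 0.72 against sham (1.64-fold, SE 0.381, unadjusted p = 0.0872) and a difference of -0.64 from 2 h to 6 h (unadjusted p = 0.121). The latter was -0.32 without 6 h replicate 1 and -0.96 without 6 h replicate 2. Psmd6, another lid subunit, read 8.53 and 8.24 in sham, 8.53 and 9.07 at 2 h, and 9.29 and 8.40 at 6 h. Its 2 h change of 0.42 (SE 0.363, unadjusted p = 0.271) came from replicate 2, at 0.84 against 0.0052 in replicate 1, and without 2 h replicate 2 it was 0.15. Psmd14 itself, the enzyme that cuts off the ubiquitin chain, read 10.19 and 10.23 in sham, 10.56 and 10.27 at 2 h, and 10.22 and 10.45 at 6 h. Its 2 h arrays were above sham by 0.20 (SE 0.203, unadjusted p = 0.336).

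Psmd13, a lid subunit, read 7.50 and 7.60 in sham, 7.69 and 7.52 at 2 h, and 8.51 and 7.68 at 6 h. The 6 h excess of 0.55 (SE 0.368, unadjusted p = 0.164) was carried by 6 h replicate 1, without which it was 0.14. A second tested probe set of Psmd13 gave 0.45 at 6 h and 0.54 at 2 h, where the first gave 0.058. At 2 h that second probe set read 7.95 and 6.37, on either side of sham at 6.62 and 6.62. Psmd11, a lid scaffold subunit, read 8.65 and 8.12 in sham, 8.27 and 7.98 at 2 h, and 8.90 and 8.61 at 6 h. Both 6 h arrays were above both 2 h arrays, by 0.63 in each run (SE 0.324, unadjusted p = 0.0795), and sham overlapped with both. Of its 5 tested probe sets, 4 gave 0.57 to 0.66 and 1 gave -0.85. Psmd4 read 7.86 and 7.81 in sham, 8.17 and 8.0 at 2 h, and 7.80 and 7.58 at 6 h. Its change was 0.25 at 2 h and -0.14 at 6 h (SE 0.32), while a second probe set of Psmd4 gave 0.28 and 0.26. The remaining subunits Psmd1, Psmd2, Psmd3 and Psmd8 differed from sham by -0.23 to 0.15 at 2 h and 0.0096 to 0.44 at 6 h, with unadjusted p-values of at least 0.278.

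**Figure D3:**
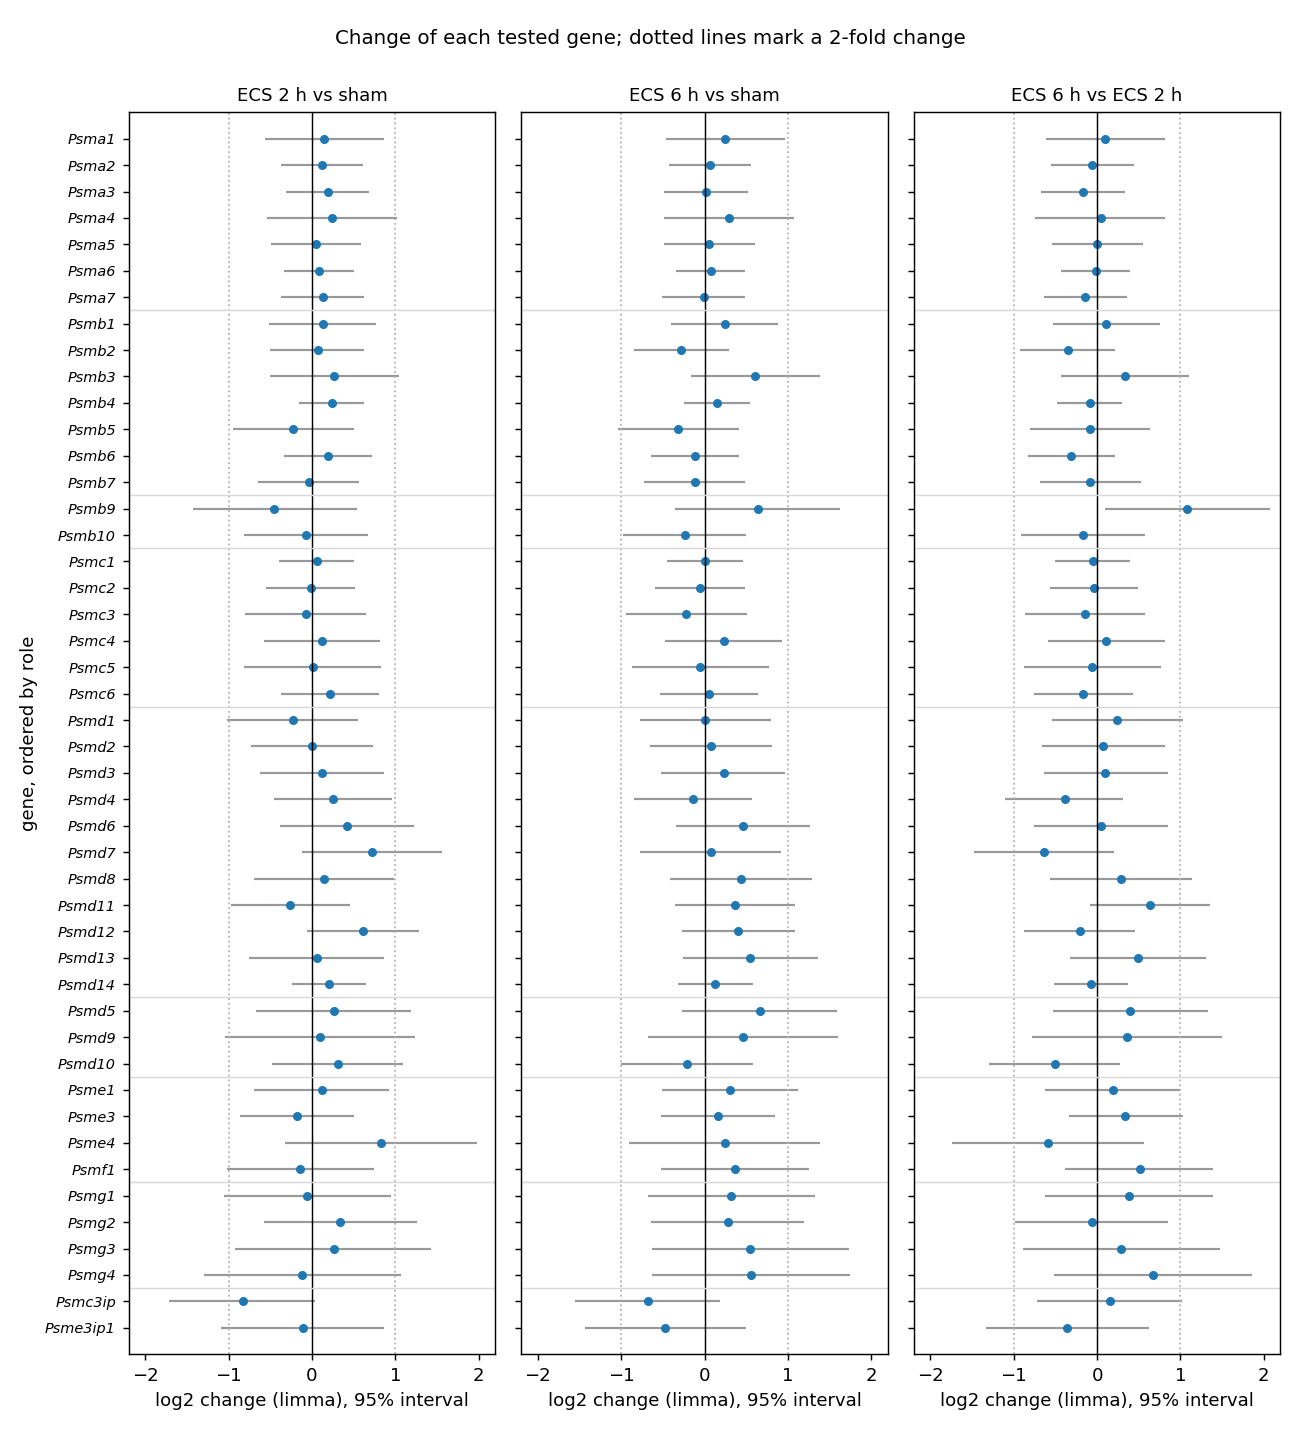
Log2 change of the 46 tested members with limma's 95% interval, in panels for ECS 2 h against sham, ECS 6 h against sham and ECS 6 h against ECS 2 h. The interval reaches 0 for every member in both comparisons with sham, and that of Psmb9 (0.1 to 2.07) lies clear of 0 between 6 h and 2 h, for a gene that was tested only through its 6 h arrays.

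Chaperones that build the regulatory particle (Psmd5, Psmd9 and Psmd10) differed between the runs. Their median change was 0.65 in replicate 1 and -0.33 in replicate 2 at 2 h, and 0.77 and -0.13 at 6 h. Psmd5 read 7.30 and 8.12 in sham, 8.32 and 7.62 at 2 h, and 8.75 and 7.99 at 6 h. Its change at 6 h was 0.66 (SE 0.421, unadjusted p = 0.146), at 1.45 in replicate 1 and -0.13 in replicate 2. Without sham replicate 1 it was 0.25 and without 6 h replicate 1 it was 0.28. Psmd10 (gankyrin) read 7.08 and 7.52 in sham, 7.73 and 7.48 at 2 h, and 7.24 and 6.94 at 6 h. Both 6 h arrays were below both 2 h arrays, by -0.51 (SE 0.356, unadjusted p = 0.177), and they overlapped with sham. Psmd9, a holder of the promoter match, differed from sham by 0.10 at 2 h and 0.46 at 6 h (SE 0.516).

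At 6 h the chaperones of the core particle also differed between the runs. The 4 genes Psmg1 to Psmg4 had a median change at 6 h of 1.27 in replicate 1, of -0.39 in replicate 2 and of 0.44 over both. Psmg2 was the exception, at 0.55 and 0.0035. Psmg3 read 4.82 and 6.33 in sham, 5.84 and 5.83 at 2 h, and 6.46 and 5.80 at 6 h, so the difference between its sham arrays exceeded every difference between groups. Without 6 h replicate 1 the median of the 4 was 0.0047, and without sham replicate 1 it was 0.086. All 4 are dim, with group means of 5.22 to 6.59. The array with the high values, 6 h replicate 1, is the one with the Gapdh ratio of 14.1, and the part of RNA quality in these values was not tested.

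Activators open the gate of the core particle in place of the regulatory particle. Psme1, the interferon-inducible activator subunit, read 8.49 and 7.65 in sham, 8.38 and 8.0 at 2 h, and 8.56 and 8.19 at 6 h. Within each group replicate 1 was the higher array, and the change was 0.12 at 2 h and 0.31 at 6 h (SE 0.368), turning to -0.30 and -0.12 without sham replicate 2. The probe set shared by Psme2 and Psme2b read 7.43 and 7.06 in sham, 7.61 and 6.79 at 2 h, and 7.53 and 7.57 at 6 h. Psme4, a nuclear activator known from sperm development and a holder of the promoter match, read 6.40 and 5.48 in sham, 6.53 and 7.01 at 2 h, and 6.86 and 5.50 at 6 h. Both 2 h arrays of Psme4 were above sham, by 0.83 (SE 0.52, unadjusted p = 0.14), at 0.13 in replicate 1 and 1.52 in replicate 2. The other tested probe sets of Psme4 gave -0.06 and -0.29, and the mean over its probe sets was 0.16. Psme3, the nuclear activator, differed from sham by -0.18 at 2 h and 0.16 at 6 h (SE 0.309), while its other tested probe set gave -0.04 and -0.69. Psmf1, an inhibitor of the core particle, read 6.29 and 5.95 in sham, 6.04 and 5.92 at 2 h, and 6.79 and 6.19 at 6 h. Both 6 h arrays of Psmf1 were above both 2 h arrays, by 0.51 (SE 0.401, unadjusted p = 0.233), and they overlapped with sham. The other tested probe sets of Psmf1 gave -0.42 and 0.01 for 6 h against 2 h.

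Psmc3ip, kept by the rule although it is no proteasome gene, read 6.57 and 6.42 in sham, 5.77 and 5.55 at 2 h, and 5.97 and 5.65 at 6 h. All 4 ECS arrays lay below both sham arrays, with a change of -0.83 at 2 h (SE 0.395, 95% interval -1.71 to 0.04, unadjusted p = 0.0594, limma's adjusted p = 0.9997) and -0.68 at 6 h (unadjusted p = 0.113). It had the smallest unadjusted p of the 46 tested members at 2 h. Psme3ip1 differed from sham by -0.11 and -0.47 (SE 0.44). Without both genes the median over the other 46 was 0.12 at 2 h and 0.16 at 6 h.

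The 6 genes with the promoter match did not all change in the same direction at either time. At 2 h Psmb5 differed from sham by -0.23, Psmb6 by 0.19, Psmc6 by 0.22, Psmd9 by 0.10, Psmd12 by 0.61 and Psme4 by 0.83. At 6 h the same genes differed by -0.32, -0.11, 0.052, 0.46, 0.40 and 0.24 in that order. None of these changes passed the test (0 of 6 at either time).

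How tightly the members were bounded can be read from their intervals. At 2 h the 95% interval of 28 of 46 members lay within 2-fold of no change (60.9%, against 31.1% of 7318 tested genes). At 6 h against sham it did for 26 (56.5%, against 32.0%), and at 6 h against 2 h also for 26 (56.5%, against 31.7%). The median standard error was 0.333 in the members, from 0.178 to 0.538, and 0.403 in all tested genes. Members were not matched to the tested genes for signal, and the fit ties the standard error in part to signal. Over the 6 arrays the level of a member ranged by a median of 0.775, against 0.988 for tested genes, and the widest range was 1.63. Among the 17 members with several tested probe sets, all probe sets had the same sign in 14 at 2 h against sham, in 8 at 6 h against sham and in 5 at 6 h against 2 h.

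**Figure D4:**
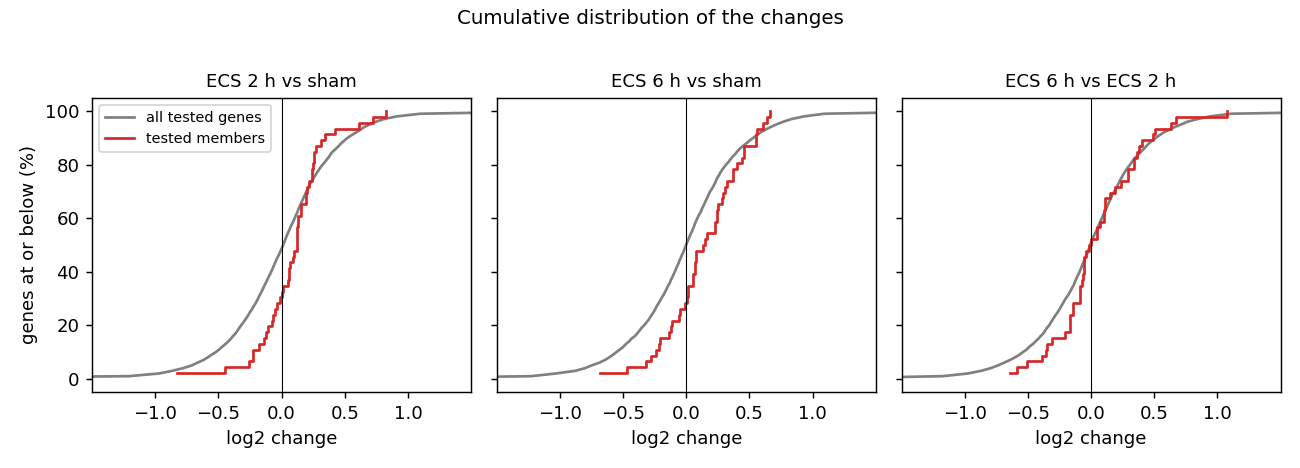
Cumulative share of genes against log2 change, for the 46 tested members and for all 7318 tested genes, in the 3 comparisons. Against sham the members' curve is shifted to the right, with medians of 0.12 and 0.14 against 0.012 and -0.0017 for the tested genes, and between 6 h and 2 h the median is -0.0067 against -0.0071.

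Around the proteasome, 55 genes of the ubiquitin pathway, of proteasome gene control and of antigen processing were on the array in 7 lists, and 52 were tested. None passed in limma in any comparison (0 of 52). Among 12 enzymes that activate or carry ubiquitin, 6 lay above sham at 2 h (median -0.031) and 7 at 6 h (median 0.0084). Ube2h, a carrier enzyme, read 9.32 and 9.05 in sham, 8.77 and 9.14 at 2 h, and 7.42 and 8.85 at 6 h, a 6 h change of -1.05 (SE 0.423, unadjusted p = 0.0311) carried by 6 h replicate 1. Among 11 ubiquitin ligases 5 lay above sham at 2 h (median -0.12) and 4 at 6 h (median -0.18). Ubr1, which recognises destabilising N-terminal residues, read 9.0 and 9.32 in sham, 9.60 and 9.80 at 2 h, and 10.43 and 9.72 at 6 h. Every ECS array of Ubr1 was above both sham arrays, with a change at 6 h of 0.92 (SE 0.283, unadjusted p = 0.00824, limma's adjusted p = 0.9998). Stub1, a ligase that works with heat shock chaperones, read 9.21 and 9.40 in sham, 9.56 and 9.51 at 2 h, and 9.91 and 9.92 at 6 h, again with all ECS arrays above sham (0.61 at 6 h, SE 0.231, unadjusted p = 0.0232). The ligases below sham included Fbxw7, at 9.36 and 8.95 in sham, 8.45 and 8.72 at 2 h, and 8.43 and 8.72 at 6 h. All ECS arrays of Fbxw7 lay below both sham arrays, with -0.57 at 2 h and -0.59 at 6 h (SE 0.299, limma's unadjusted p = 0.0816 and 0.0763). Mdm2 differed from sham by -1.02 at 6 h (SE 0.469, unadjusted p = 0.0533), with both 6 h arrays below sham.

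The regulators of proteasome genes were read next. Nfe2l1 read 7.63 and 7.57 in sham, 7.59 and 7.30 at 2 h, and 7.81 and 7.48 at 6 h, with a change of -0.16 at 2 h and 0.048 at 6 h (SE 0.339). Nfe2l2, its relative in the oxidative stress response, read 5.67 and 6.87 in sham, 6.13 and 6.74 at 2 h, and 5.36 and 5.40 at 6 h. Both 6 h arrays of Nfe2l2 were below the other 4, with -0.89 against sham and -1.05 against 2 h (SE 0.479, unadjusted p = 0.0921 and 0.0515). Maff, a small Maf protein that pairs with both factors, read 5.04 and 5.57 in sham, 7.25 and 7.27 at 2 h, and 4.87 and 5.56 at 6 h. At 2 h Maff stood 1.96 above sham (SE 0.432, 95% interval 1.00 to 2.91, unadjusted p = 0.000932, limma's adjusted p = 0.656), and at 6 h its arrays overlapped with sham. The bright 2 h arrays of Maff met the filter by themselves. The filter thus favoured this test, and its p is no support for a difference. Pomp, a chaperone that matures the core particle, read 10.24 and 10.19 in sham, 10.07 and 9.96 at 2 h, and 10.37 and 10.34 at 6 h. The Pomp arrays of the groups did not overlap, with a change of -0.20 at 2 h and 0.14 at 6 h against sham (SE 0.195, unadjusted p = 0.332 and 0.488).

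Antigen processing genes, which share the interferon response with Psmb8, Psmb9 and Psmb10, were 8 on the array and 5 tested. Of the 8, 5 lay above sham at 2 h (median 0.30) and 7 at 6 h (median 0.25). H2-D1, a class I presenting molecule, read 6.00 and 6.51 in sham, 8.62 and 7.03 at 2 h, and 7.92 and 7.15 at 6 h, with every ECS array above sham (1.57 at 2 h, SE 0.521, unadjusted p = 0.0122). H2-K1, another class I molecule, read 6.85 and 6.36 in sham, 7.05 and 7.10 at 2 h, and 7.57 and 7.60 at 6 h (0.98 at 6 h, SE 0.355, unadjusted p = 0.0189). Irf1, the interferon-induced factor that drives Psmb9 and class I genes, read 5.30 and 6.04 in sham, 5.75 and 5.40 at 2 h, and 7.30 and 6.32 at 6 h. At 6 h both Irf1 arrays were above the other 4, by 1.23 against 2 h (SE 0.472, unadjusted p = 0.0251, limma's adjusted p = 0.999). Against sham at 6 h Psmb9, tested only through its 6 h arrays, differed by 0.64, Psmb8 by -0.35 and Psmb10 by -0.24. A link between Irf1 and these genes was not tested.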

How the data were processed

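Gene expression was measured on 6 arrays of an Affymetrix mouse type, 2 for each of 3 groups. The values are intensity values that the authors deposited on a linear scale, and MAS5 is the tool that the submitters' processing notes name, with its version and target not given in the sources used. Of 22690 probe sets, 64 controls were dropped. Of the remaining 22626, 20380 carried 1 gene symbol, 691 several and 1555 none, from the array's annotation. The deposited array medians differ, so the values were quantile-normalised, 16 was added and log2 taken. limma 3.58.1 in R 4.3.3 was fitted to all 6 arrays with a mean per group and a variance trend (7.64 prior and 3 residual degrees of freedom). It was run on simulated data with independent noise and with larger changes than any member showed. That run is no check on changes as small as those of the members. Benjamini-Hochberg adjustment at 0.05, two-sided, ran over the 12662 tested probe sets of each comparison. All genes stand for 12393 genes with 1 probe set each, and tested genes for 7318 of them. Counts and medians over members are descriptions with no test.

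The members, their roles and the gene lists were chosen with earlier results of these data known. Values per array are given for the 6 members of smallest p in each comparison, Psmb5 to Psmb10, Psme1, Psmf1, and the highest and lowest member in sham. In each pathway list the plan was up to 2 genes of smallest p in any 1 comparison, and Nfe2l1, Nfe2l2 and Pomp. Not all genes of that plan are given. None is given of the deubiquitinases or of the ubiquitin receptors and shuttles. Psmc1, Psmd14, Psmd4, Psmg3, the single values of other members and the ligase Mdm2 were chosen after their values were seen. Nothing but the replicate number ties arrays to a run, and the labels say that the experiment was run 2 times with different animals. Deviations of same-numbered arrays from their group means correlated across probe sets by 0.228 (sham and 2 h), 0.185 (sham and 6 h) and 0.151 (2 h and 6 h), so the replicate block was fitted as an alternative. The others were offsets of 1 and 64, no scaling, median subtraction, no filter or a 75th percentile filter, no variance trend, array weights, only the 4 arrays compared, the mean over probe sets, each array left out, and the members without Psmc3ip. Leaving out Psme3ip1 as well was added after seeing the data. The number of arrays, 2 a group, limits the precision. Promoter windows are RefSeq's, in GRCm38.p6. Protein sequences were not analysed here.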

Additional observations from a re-analysis of the deposited data

Results flagged for a closer look

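For 2 members both ECS 2 h arrays lay on one side of both sham arrays and both ECS 6 h arrays on the other (4.17% of 48, against 1.92% of all 12393 genes). Psmb9 differed from sham by -0.45 at 2 h and by 0.64 at 6 h. The difference between those changes is the comparison of 6 h with 2 h, 1.08 (SE 0.447, limma's unadjusted p = 0.0344, adjusted p = 0.999). It was tested only because both 6 h arrays, where it is high, passed the filter, so this p is no support for a difference. Psmd4 differed from sham by 0.25 at 2 h and by -0.14 at 6 h, and the difference between them was -0.39 (SE 0.32, unadjusted p = 0.246, adjusted p = 0.999). Its second tested probe set gave 0.28 and 0.26 against sham. Groups of 2 arrays are too small for a check on single outlying arrays.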

How the results depend on the processing

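No member was called in any of 19 alternatives in any comparison (0 called), including the replicate block, under which the adjusted p of Psmb9 at 6 h against 2 h was 0.849 and the medians stayed at 0.12, 0.14 and -0.029. The median change at 2 h against sham, 0.12, was 0.029 with the values as deposited, where the median of all genes was -0.06, and 0.041 to 0.23 with 1 array left out. At 6 h against sham, 0.14, it was 0.29 as deposited and 0.32 with median subtraction, each 0.25 above all genes, and 0.087 to 0.14 with 1 array left out. At 6 h against 2 h, -0.029, it was 0.18 as deposited, where all genes moved by 0.11, 0.084 with median subtraction, and -0.12 to 0.066 with 1 array left out. These medians had no filter, so the alternative without one gives no other value. Of the named tested changes, 14 turned sign in some setting, with values of at most 0.3 in size. At 2 h against sham Psmf1 was 0.065 with the mean over probe sets. At 6 h against sham Psmb6 was 0.022 as deposited and 0.047 with median subtraction, and Psmb7 0.0091 and 0.035. At 6 h against 2 h as deposited Psmb5 was 0.085, Psmb7 0.14, Psmb10 0.022 and Psma6 0.19, and with median subtraction Psmb7 was 0.042 and Psma6 0.091. With 1 array left out, the 2 h change ran from -0.33 to 0.25 for Psmb7, -0.38 to 0.24 for Psmb10, -0.3 to 0.54 for Psme1, -0.31 to 0.032 for Psmf1 and -0.13 to 0.31 for Psma6. The 6 h change ran from -0.23 to 0.0039 for Psmb6, -0.28 to 0.032 for Psmb7, -0.12 to 0.73 for Psme1 and -0.11 to 0.25 for Psma6. From 2 h to 6 h it ran from -0.23 to 0.053 for Psmb5, -0.37 to 0.2 for Psmb7, -0.48 to 0.14 for Psmb10, -0.0013 to 0.37 for Psme1 and -0.23 to 0.21 for Psma6. The cause was not tested in any of these. Deposited array medians of 25.2 to 40.8 lie close to the offset of 16, which limits what can be read from Psmb8, Psmb9, Psma8 and the Psmg genes.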
